A study of Homo sapiens with 9 samples.

Results

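The integrin and laminin genes of the TC32 table were taken by symbol, by a name that marks an integrin alpha subunit, an integrin beta subunit or a laminin alpha, beta or gamma chain. Those described here are 37 of the 60603 genes, made up of 18 integrin alpha, 8 integrin beta and 11 laminin genes. TC32 cells are an established line from Ewing sarcoma with the EWS::FLI1 fusion, in which the start of EWSR1 is joined to the DNA-binding end of FLI1. Its polyadenylated RNA was sequenced 30 h after plating in 3 groups of 3 libraries, all labelled wild type and batch 1. The siEF cells were plated on an siRNA that spans the fusion breakpoint, the siNEG cells on a nonspecific siRNA, and the media cells carry the label Media only. All 9 libraries come from this 1 cell line. The libraries are labelled as biological replicates, and since nothing says what separated the cultures, the P values measure the spread between these libraries. The question addressed is which genes of this family differ when the fusion is silenced (siEF against siNEG) and when a nonspecific siRNA is given (siNEG against media).

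Integrins are cell surface receptors built from 1 alpha and 1 beta subunit, and the pair decides which matrix protein is bound. Laminins are secreted trimers of 1 alpha, 1 beta and 1 gamma chain that polymerise into the basement membrane, the sheet of matrix on which many cells sit, and several integrins bind them. Inside the cell the beta subunit is tied to actin through talin, kindlin and vinculin. ITGB1 pairs with most alpha subunits, whereas ITGB2 pairs with the leukocyte alpha subunits ITGAL, ITGAM, ITGAX and ITGAD.

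Total expected counts per library ranged from 20727706 to 33134581. The 10 largest genes took 12.3 to 12.9% of the counts in siEF and 5.78 to 6.62% in the other libraries. The siRNA covers the junction, whereas the table counts FLI1 and EWSR1 as whole genes, so the fusion itself was not counted separately. FLI1 was at 38.4, 35.5 and 39.3 CPM (the count scaled to library size, here TMM-scaled) in siEF, 48.6, 48.5 and 48.0 in siNEG and 59.5, 56.2 and 57.9 in media. All 3 siEF libraries were below all 6 others (log2 fold change -0.35 ± 0.057 SE, edgeR adjusted P = 2.88e-05 for siEF against siNEG). EWSR1 gave log2 fold change -0.23 ± 0.043 SE, edgeR adjusted P = 0.000121. NR0B1, a known EWS::FLI1-induced gene, was at 15.6, 20.2 and 17.1 CPM in siEF against 143, 133 and 135 in siNEG (log2 fold change -2.97 ± 0.079 SE, edgeR adjusted P = 7e-15). Of 6 Ewing sarcoma markers (CD99, NKX2-2, NR0B1, STEAP1, PRKCB and FLI1), all 6 were present at a mean of 1 CPM or more in every group, and their summed level was 412 to 418 CPM in siEF, 746 to 754 in siNEG and 876 to 925 in media. The 6 did not all move together. By edgeR adjusted P under 0.01, 5 were lower in siEF than in siNEG and 1 was higher (log2 fold change 0.23). Over all genes tested, 31.7% were lower and 33.6% higher at that threshold.

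The 3 siEF libraries carried far more laminin RNA than the other 6, while integrin RNA differed less in sum. Summed over the 11 laminin genes, the level was 2324 ± 41.7 CPM in siEF (SD, n = 3), 533 ± 21.7 in siNEG and 449 ± 15.5 in media. Summed over the 26 integrin genes it was 1270.1 ± 15.4, 1106 ± 33.2 and 1255 ± 23.7 CPM, so that the siEF and media libraries overlapped. In bulk RNA, fewer cells of a type and less RNA per cell cannot be told apart.

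A gene was called when its adjusted P was under 0.01 and its log2 fold change lay beyond 1. Of the 37 members, 29 had enough counts to be tested and 8 did not. Between siNEG and siEF, 12 members were called higher (ITGA3, ITGA8, ITGA9, ITGA11, ITGAL, ITGAV, ITGB4, LAMA1, LAMA4, LAMA5, LAMB1 and LAMB2) and 1 was called lower (ITGB2). Over all 16093 genes tested, 17.1% were called higher and 11.7% lower. Of the tested members, 6 passed the filter on low counts only through their siEF libraries (ITGA2B, ITGA8, ITGA9, ITGA11, ITGAL and LAMA1), and 5 of these are among the 12. The other 23 tested members held 7 called higher and 1 called lower. By adjusted P alone, 19 members were higher and 3 lower, against 33.6% and 31.7% of all genes.

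**Figure D1:**
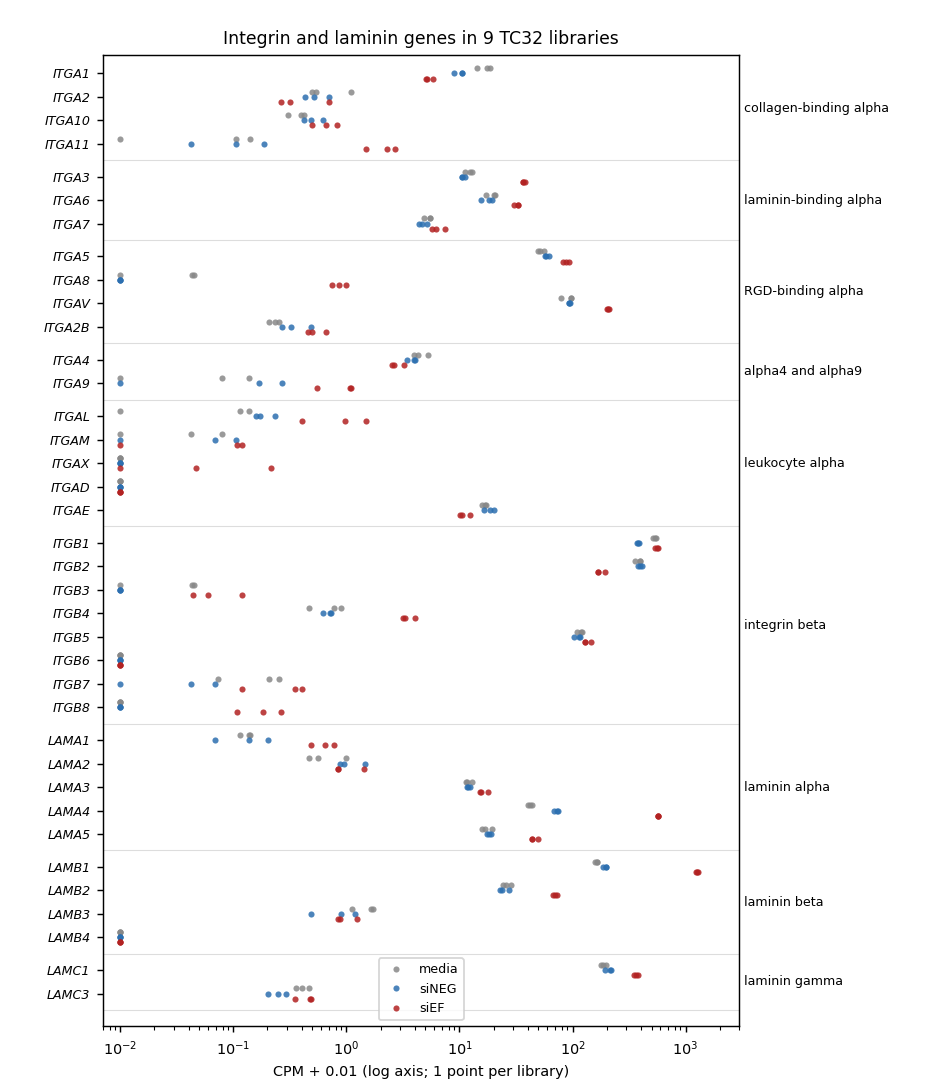
CPM of the 37 genes in each of the 9 libraries, with 0.01 added and on a log axis; 1 point is 1 library and rows are grouped by subunit class. LAMA4 and LAMB1 show the siEF libraries far to the right of the other 6, ITGB2 shows them to the left, and ITGAD, ITGB6 and LAMB4 have all 9 libraries at 0 counts.

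The chain that rose most among the abundant laminins was LAMA4, the alpha chain of vessel and mesenchymal basement membranes (chr6:112107931-112254939 on GRCh38, minus strand). It was at 568, 565 and 572 CPM in siEF, 68.3, 73.0 and 74.1 in siNEG and 40.5, 43.9 and 41.8 in media. The 3 groups did not overlap, and siNEG lay between the other two. The siEF level was 7.92 times the siNEG level (log2 fold change 2.98 ± 0.047 SE, edgeR adjusted P = 3.01e-17).

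LAMB1, the beta chain of most laminins outside skin (chr7:107923799-108003213, minus strand), was at 1255, 1230.0 and 1283 CPM in siEF, 188, 199 and 199 in siNEG and 158, 165 and 165 in media. Its groups did not overlap either, and the siEF level was 6.44 times the siNEG level (log2 fold change 2.69 ± 0.044 SE, edgeR adjusted P = 4.08e-17). LAMC1, the gamma chain shared by nearly all laminins made by mesenchymal cells (chr1:183023420-183145592, plus strand), was at 367, 353 and 376 CPM in siEF, 192, 216 and 219 in siNEG and 178, 196 and 185 in media. The siEF libraries were above all others and the siNEG and media libraries overlapped. At 1.75 times the siNEG level, LAMC1 passed the adjusted P but not the fold cut-off (log2 fold change 0.81 ± 0.054 SE, edgeR adjusted P = 7.13e-10).

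Among the 3 chains that can form 1 trimer, the gamma chain thus moved least. Within a library, the ratio of LAMB1 to LAMC1 counts was 3.44 ± 0.0422 in siEF, 0.935 ± 0.0376 in siNEG and 0.872 ± 0.0298 in media (SD, n = 3). For LAMA4 to LAMC1 the ratios were 1.56 ± 0.0415, 0.344 ± 0.00999 and 0.226 ± 0.00222. Such ratios do not depend on how libraries are scaled. The siEF and siNEG libraries did not overlap in either ratio, with P = 0.1 in a two-sided exact permutation test, the smallest P that 3 against 3 libraries allow. The ratio of LAMB1 to LAMA4 counts went the other way, at 2.21 ± 0.0332 in siEF, 2.72 ± 0.0367 in siNEG and 3.87 ± 0.101 in media.

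**Figure D2:**
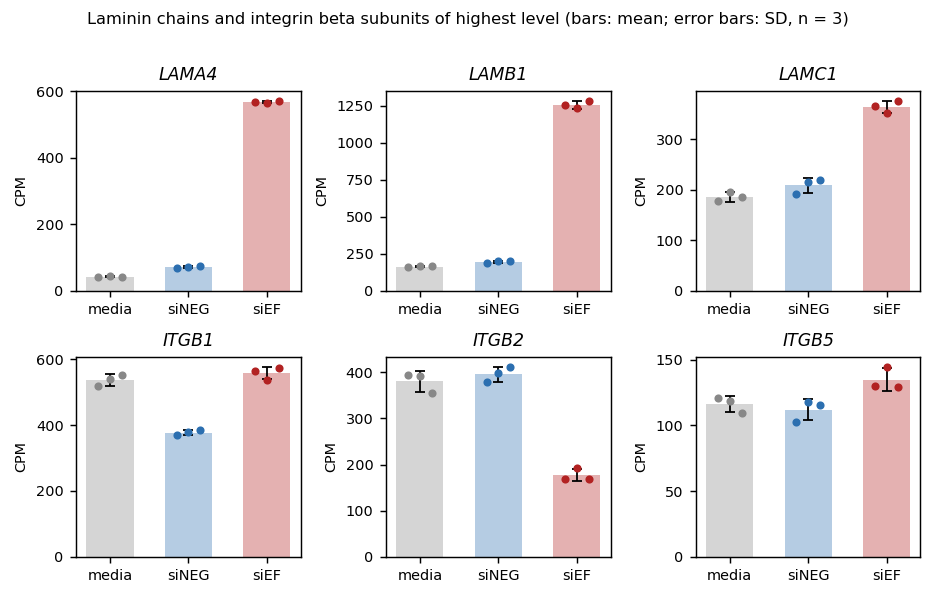
CPM of 3 laminin chains and 3 integrin beta subunits on linear axes that start at 0; bars are the mean, error bars the SD and points the 3 libraries of each group. LAMA4, LAMB1 and LAMC1 are highest in siEF, ITGB2 is lowest in siEF, and the siNEG libraries are lowest for ITGB1.

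LAMB1 and LAMC1 moved by different amounts, and the sequence just before each gene is shown. Whether these sequences bear on that difference was not tested. Sequence beyond the 250 bases before the start was not searched. RefSeq promoter windows on GRCh38.p14 matched 26 of the 37 members, with 33 windows in all. The bases before the start were searched on both strands for GGGCGG (the GC box bound by the SP1 family), GGAAGGAA (a short GGAA repeat), CCGGAA (an ETS core), TGANTCA (the AP-1 site) and TATAAA. The stretches printed lie outside the bounds of the GENCODE genes, run 5′ to 3′ on the strand of the gene and have each GC box in capitals. They are chr7:108003214-108003411 on the minus strand for LAMB1 and chr1:183023170-183023419 on the plus strand for LAMC1.
LAMB1: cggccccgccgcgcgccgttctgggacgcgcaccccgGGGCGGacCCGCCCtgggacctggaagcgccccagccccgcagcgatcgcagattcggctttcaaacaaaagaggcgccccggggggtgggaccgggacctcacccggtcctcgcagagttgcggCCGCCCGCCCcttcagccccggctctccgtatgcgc
LAMC1: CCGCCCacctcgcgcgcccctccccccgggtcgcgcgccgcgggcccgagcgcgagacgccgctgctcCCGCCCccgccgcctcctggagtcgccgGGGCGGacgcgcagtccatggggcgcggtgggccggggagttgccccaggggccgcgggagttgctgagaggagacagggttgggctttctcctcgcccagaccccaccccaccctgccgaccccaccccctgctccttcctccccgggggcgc
The LAMB1 window held 4 GC boxes, 2 of them sharing bases, and the LAMC1 window held 3. Neither window held any of the other 4 motifs, and the window of LAMA4 held none of the 5. A GC box was present in 17 of the 33 member windows and in 42.6% of all 35116 windows of that length. GGAAGGAA was present in 2 member windows, those of LAMB2 and ITGA10, against 3.06% of all windows. CCGGAA was found in 5 (14.5% of all), TGANTCA in 2 (6.57%) and TATAAA in 2 (10.7%). A match is a run of letters in these windows and not a measured site. The G and C content was 48.4% in the window of LAMA4, 70.4% in that of LAMB1 and 79.6% in that of LAMC1, where the median of all windows was 58.0%. The LAMA4 window (chr6:112254568-112254817) lies wholly inside the bounds of the GENCODE gene, and the LAMB1 window runs partly into its gene.

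LAMA5, the alpha chain most widely found in adult basement membranes, was at 43.8, 49.9 and 43.4 CPM in siEF, 18.9, 17.4 and 18.3 in siNEG and 16.8, 19.4 and 15.9 in media (log2 fold change 1.32 ± 0.080 SE, edgeR adjusted P = 1.81e-10). LAMB2, the beta chain of neuromuscular and glomerular laminins, was at 66.8, 69.9 and 73.2, 27.4, 23.0 and 23.9 and 28.7, 25.8 and 24.4 CPM (log2 fold change 1.50 ± 0.076 SE, edgeR adjusted P = 1.92e-11). In both, siEF stood above the other 6 libraries, which overlapped between siNEG and media. LAMA3, the alpha chain of epithelial laminins, was at 15.4, 15.3 and 17.7 CPM in siEF and 11.7, 12.0 and 12.4 in siNEG and passed the adjusted P only (log2 fold change 0.43 ± 0.086 SE, edgeR adjusted P = 0.000295).

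The other laminin chains were near the limit of detection. LAMA1, the chain of early embryonic basement membranes, was at 0.759, 0.637 and 0.480 CPM in siEF against 0.126, 0.0589 and 0.192 in siNEG (log2 fold change 2.29 ± 0.50 SE, edgeR adjusted P = 0.000659), from 21, 13 and 14 and 4, 2 and 6 counts. LAMA2, the muscle chain, gave a log2 fold change of -0.07 (edgeR adjusted P = 0.866). LAMB3, the beta chain of skin laminin, gave 0.22 (edgeR adjusted P = 0.593). Both overlapped between siEF and siNEG, with LAMA2 at means of 1.02 and 1.09 CPM and LAMB3 at 0.978 and 0.848. LAMC3 did not overlap but missed the threshold (log2 fold change 0.86 ± 0.43 SE, edgeR adjusted P = 0.0829). LAMB4, which lies beside LAMB1 on chromosome 7, had 0 counts in all 9 libraries.

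Per kilobase of exon, which allows genes to be compared, LAMB1 was the most abundant laminin chain in siEF at 67.5 ± 1.41 CPM per kb, followed by LAMA4 at 47.4 ± 0.281 and LAMC1 at 43.2 ± 1.39 (SD, n = 3). In siNEG the order was LAMC1 at 24.8 ± 1.75, LAMB1 at 10.5 ± 0.339 and LAMA4 at 5.99 ± 0.260 CPM per kb. These neighbours lay further apart than their SDs. With the length of the longest transcript, LAMB1 stood at 28.9 ± 0.936 and LAMC1 at 26.4 ± 1.86 CPM per kb in siNEG, so the order of these 2 in siNEG depended on the length used, while LAMB1, LAMA4 and LAMC1 kept their order in siEF. LAMA4 made up 91.5% of the summed alpha chain level in siEF, 73.5% in siNEG and 63.0% in media. The share of LAMA5 was 6.17%, 15.7% and 21.7%, even though its own level was highest in siEF. LAMB1 made up 86.7% of the beta chains in siEF and 73.5% in siNEG. By the longest transcript these shifts were smaller, with LAMB1 at 93.7% in siEF and 86.4% in siNEG and LAMA4 at 93.3% and 77.7%.

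ITGB2 was the only member called lower between siNEG and siEF (chr21:44885953-44931989, minus strand). It was at 169.6, 193 and 169 CPM in siEF, 378, 398 and 411 in siNEG and 394, 392 and 355 in media, with siEF below all 6 other libraries. The siEF level was 44.6% of the siNEG level (log2 fold change -1.16 ± 0.058 SE, edgeR adjusted P = 1.68e-11). ITGB2-AS1, a transcript of the opposite strand that shares 303 bases with the exons of ITGB2, had means of 3.30, 16.6 and 15.5 CPM in siEF, siNEG and media, with a log2 fold change of -2.32 (edgeR adjusted P = 4.86e-10). The strand setting of the counting is not given in the sources used here, so reads of these 2 genes may not be fully told apart.

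The alpha subunits that pair with ITGB2 were almost absent. ITGAD had 0 counts in all 9 libraries, ITGAM had at most 3 counts and ITGAX at most 6. ITGAL, the alpha subunit of the lymphocyte receptor LFA-1, was at 0.397, 1.47 and 0.960 CPM in siEF, 0.221, 0.147 and 0.160 in siNEG and 0, 0.127 and 0.105 in media (log2 fold change 2.37 ± 0.59 SE, edgeR adjusted P = 0.00172). Its 3 siEF libraries differed widely among themselves, from 11, 30 and 28 counts. Per kilobase, ITGB2 in siNEG was at 54.2 ± 2.25 CPM per kb while ITGAL was at 0.0179 ± 0.00399. The 6 leukocyte markers (PTPRC, CD3E, MS4A1, CD14, LYZ and SPI1) summed to 0.882 to 1.12 CPM in siEF, 0.513 to 1.01 in siNEG and 0.559 to 1.02 in media. PTPRC, CD3E and MS4A1 were at 0 in all siEF libraries, and CD3E and MS4A1 at 0 in all 9.

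ITGB1, the common beta subunit (chr10:32887273-33005792, minus strand), was at 564, 539 and 575 CPM in siEF, 369, 378 and 385 in siNEG and 519, 542 and 553 in media. The siNEG libraries were the lowest, and the siEF and media libraries overlapped. ITGB1 was higher in siEF than in siNEG by adjusted P (log2 fold change 0.57 ± 0.043 SE, edgeR adjusted P = 3.91e-09) and lower in siNEG than in media (log2 fold change -0.51 ± 0.043 SE, edgeR adjusted P = 6.43e-07). Against media, the siEF difference was small (log2 fold change 0.06 ± 0.043 SE, edgeR adjusted P = 0.25). Whether ITGB1 was higher in siEF thus depended on the control, and the comparisons with siNEG and with media share the siEF libraries.

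Per kilobase of exon, ITGB2 was the leading beta subunit in siNEG and media and ITGB1 in siEF. ITGB1 made up 45.8% of the summed beta subunit level in siEF, 26.6% in siNEG and 34.5% in media. ITGB2 made up 28.9%, 55.7% and 48.6%. The ratio of ITGB1 to ITGB2 counts within a library was 3.18 ± 0.332 in siEF, 0.954 ± 0.0200 in siNEG and 1.42 ± 0.126 in media. The 3 groups did not overlap in this ratio. The two-sided exact permutation test gave P = 0.1, the smallest it can give, for siEF against siNEG and for siNEG against media. With the length of the longest transcript in place of all exons, the ITGB1 share was 59.4% in siEF and 38.3% in siNEG, and that of ITGB2 22.1% and 47.2%, so the exchange of first place between siNEG and siEF held with both lengths. In media the first place depended on the length, with ITGB1 at 47.5% and ITGB2 at 39.4% by the longest transcript.

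**Figure D3:**
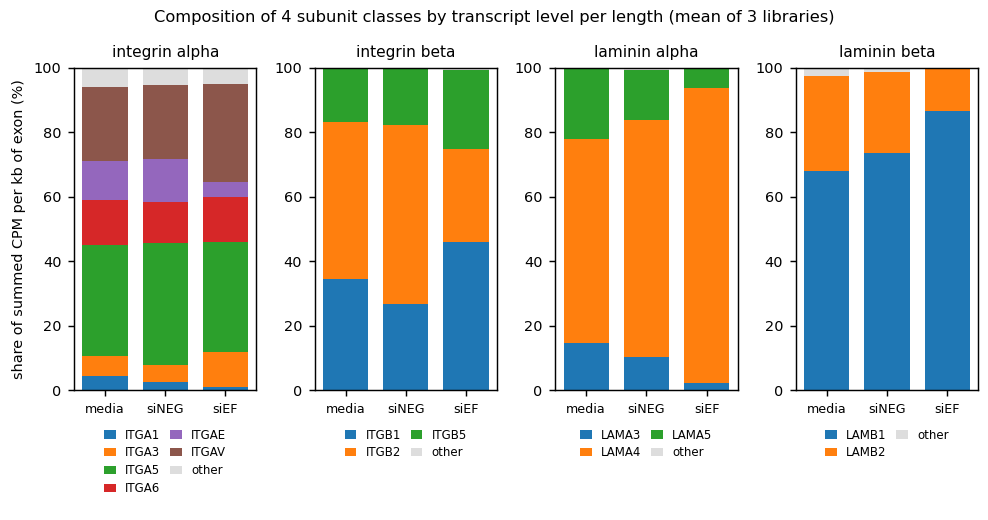
Share of each gene in the summed level per kb of exon within 4 subunit classes, as the mean of the 3 libraries of each group; genes under 4% in every group are drawn together as other. LAMA4 and LAMB1 take a larger share in siEF than in siNEG, and ITGB1 and ITGB2 exchange first place between siNEG and siEF.

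ITGB4, the beta subunit of hemidesmosomes, was at 3.18, 4.02 and 3.29 CPM in siEF, 0.727, 0.707 and 0.609 in siNEG and 0.882, 0.761 and 0.454 in media. The siEF libraries were 5.09 times the siNEG level and above all 6 others (log2 fold change 2.35 ± 0.27 SE, edgeR adjusted P = 7.16e-07). ITGB5, which pairs with ITGAV, was at 129.9, 145 and 129 CPM in siEF and 103, 118 and 115 in siNEG and passed the adjusted P only (log2 fold change 0.26 ± 0.061 SE, edgeR adjusted P = 0.000891). The remaining beta subunits were not tested. ITGB6 had 0 counts throughout and ITGB3, the partner of ITGA2B on platelets, at most 3. ITGB7 had 3, 8 and 10 counts in siEF and 0, 2 and 1 in siNEG. ITGB8 had 7, 2 and 5 counts in siEF and 0 in the other 6 libraries.

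All 3 laminin-binding alpha subunits were higher in siEF than in siNEG by adjusted P, as were 33.6% of all genes, and ITGA3 was called. ITGA3 (chr17:50055968-50090481, plus strand) was at 36.6, 38.3 and 36.6 CPM in siEF, 10.5, 10.4 and 11.1 in siNEG and 12.8, 12.4 and 11.2 in media, with siEF at 3.48 times siNEG (log2 fold change 1.80 ± 0.071 SE, edgeR adjusted P = 8.66e-13). ITGA6, which pairs with ITGB1 or ITGB4, was at 33.0, 30.3 and 32.9, 15.5, 18.4 and 19.5 and 17.2, 20.1 and 20.6 CPM (log2 fold change 0.85 ± 0.088 SE, edgeR adjusted P = 1.77e-07). ITGA7, the muscle laminin receptor, was at 5.71, 7.44 and 6.14 CPM in siEF, 4.36, 4.66 and 5.13 in siNEG and 5.52, 5.49 and 4.85 in media (log2 fold change 0.44 ± 0.14 SE, edgeR adjusted P = 0.008). Against media ITGA7 did not pass (log2 fold change 0.27 ± 0.13 SE, edgeR adjusted P = 0.0783). For all 3, no siEF library overlapped with siNEG, which also held for 12370 of all 16093 genes tested. The ratio of ITGA3 to ITGA6 counts was 1.16 ± 0.0889 in siEF and 0.604 ± 0.0611 in siNEG.

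Of the alpha subunits that bind the RGD motif of fibronectin and related ligands, ITGAV and ITGA8 were called higher. ITGAV, which pairs with ITGB1, ITGB3, ITGB5, ITGB6 or ITGB8, was at 204, 202 and 211 CPM in siEF, 94.0, 94.6 and 93.1 in siNEG and 79.5, 97.3 and 96.9 in media (log2 fold change 1.13 ± 0.063 SE, edgeR adjusted P = 6.26e-11). The siEF libraries were 2.19 times the siNEG level, just past the cut-off, and ITGAV missed the threshold when tested against a fold at the cut-off rather than at 0 (edgeR adjusted P = 0.0329). ITGA5, the fibronectin receptor subunit, was at 83.1, 88.1 and 93.7, 57.7, 57.8 and 61.7 and 55.9, 51.1 and 49.3 CPM (log2 fold change 0.58 ± 0.062 SE, edgeR adjusted P = 2.55e-07). ITGA8 had 27, 15 and 25 counts in siEF, 0 in the 3 siNEG libraries and 1, 0 and 1 in media (edgeR adjusted P = 2.58e-06 for siEF against siNEG). With 3 counts per library taken as the floor, its siEF level was at least 9.19-fold higher than that of siNEG. ITGA2B, the platelet fibrinogen receptor subunit, did not pass (log2 fold change 0.59 ± 0.42 SE, edgeR adjusted P = 0.21). The 4 platelet markers PF4, GP1BA, GP9 and GP6 summed to at most 0.506 CPM in any library, with PF4 and GP9 at 0 in all 9.

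The collagen-binding alpha subunits did not move together. ITGA11, the receptor of fibroblasts for fibrillar collagen, was at 2.67, 1.47 and 2.26 CPM in siEF, 0.0948, 0.177 and 0.0321 in siNEG and 0.131, 0.0952 and 0 in media (log2 fold change 4.33 ± 0.54 SE, edgeR adjusted P = 1.94e-06). The siNEG values rest on 3, 6 and 1 counts. ITGA1, a receptor for basement membrane collagen, went the other way at 5.09, 5.14 and 5.86 CPM in siEF, 10.5, 10.5 and 8.94 in siNEG and 14.2, 18.7 and 17.6 in media. Its 3 groups did not overlap, with siNEG in the middle (log2 fold change -0.89 ± 0.12 SE, edgeR adjusted P = 6.2e-06 for siEF against siNEG). ITGA2 and ITGA10 overlapped between siEF and siNEG, with log2 fold changes of -0.42 (edgeR adjusted P = 0.442) and 0.41 (edgeR adjusted P = 0.334). ITGA1 shares 499 exonic bases with PELO on the same strand, at means of 20.9 CPM in siEF and 26.5 in siNEG.

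ITGA9, a receptor for tenascin, was at 0.542, 1.08 and 1.06 CPM in siEF and 0.158, 0 and 0.256 in siNEG (log2 fold change 2.68 ± 0.68 SE, edgeR adjusted P = 0.00216), from 15, 22 and 31 against 5, 0 and 8 counts. Without siEF replicate 3 the edgeR adjusted P was 0.0127, and ITGA9 was no longer called. ITGAL likewise lost its call without siEF replicate 2 (edgeR adjusted P = 0.0157) or without siNEG replicate 2 (edgeR adjusted P = 0.0112). ITGA4, the partner of ITGB1 or ITGB7 on leukocytes and neural crest cells, gave log2 fold change -0.44 ± 0.17 SE, edgeR adjusted P = 0.0321 and did not pass. ITGAE, which pairs with ITGB7, was at 10.0, 12.4 and 10.6 CPM in siEF, 20.3, 16.4 and 18.7 in siNEG and 17.3, 16.7 and 15.7 in media, and passed the adjusted P only (log2 fold change -0.75 ± 0.10 SE, edgeR adjusted P = 3.07e-06). HASPIN, a kinase gene on the opposite strand that shares 427 bases with ITGAE exons, gave a log2 fold change of -1.27 (edgeR adjusted P = 9.33e-10).

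**Figure D4:**
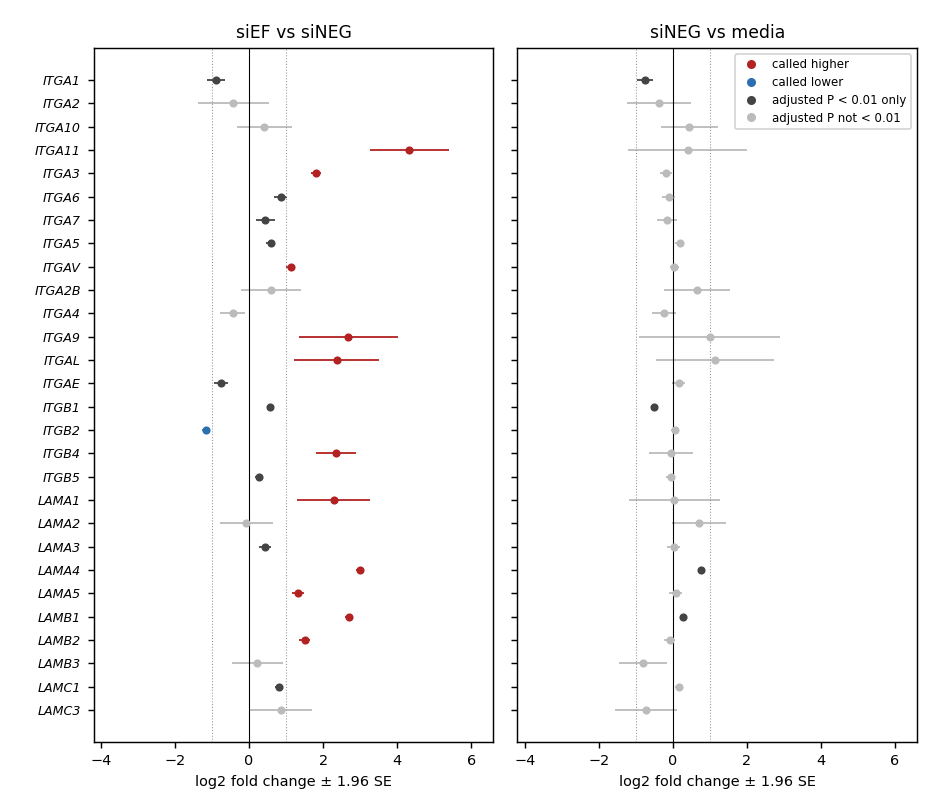
Log2 fold change of 28 tested genes with an interval of 1.96 SE on each side, for siEF against siNEG (left) and siNEG against media (right); dotted lines mark the cut-off of 1, and ITGA8 is left out because its siNEG libraries are all at 0. On the left 11 genes are called higher and 1 lower, and on the right none is called.

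Between media and siNEG no member was called in either direction by edgeR or by DESeq2, which gave no adjusted P for the members of low count. By the edgeR test, 0.162% of all genes were called higher and 0.267% lower. By adjusted P alone 2 members were higher and 2 lower, against 3.83% and 5.96% of all genes, and 8 members had an unadjusted P under 0.05 (4 higher, 4 lower), where 30.3% of all genes did. LAMA4 was higher in siNEG (log2 fold change 0.77 ± 0.048 SE, edgeR adjusted P = 2.24e-08), the direction it also had in siEF against siNEG. LAMB1 was higher too (log2 fold change 0.26 ± 0.043 SE, edgeR adjusted P = 0.000395). ITGB1 was lower, as given above, and so was ITGA1 (log2 fold change -0.76 ± 0.11 SE, edgeR adjusted P = 0.000133). In siNEG the LAMA4 level was 1.71 times that in media.

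With media as the control, 12 members were called higher and 2 lower in siEF, against 17.4% and 12.5% of all genes. This comparison shares its siEF libraries with the one against siNEG. The genes called higher were the 12 that were also called against siNEG. ITGB2 (log2 fold change -1.11 ± 0.058 SE, edgeR adjusted P = 3.13e-11) and ITGA1 (log2 fold change -1.64 ± 0.12 SE, edgeR adjusted P = 2.1e-09) were called lower.

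The proteins that anchor integrins to actin and relay their signals were followed as a list of 29 genes. All 29 were tested, 15 were called higher in siEF than in siNEG and none lower, where 17.1% of all genes were called higher and 11.7% lower. Among the 15, PARVG and TNS4 passed the filter on low counts only through their siEF libraries. The median log2 fold change was 1.05 in the list and 0.046 over all genes. The 3 largest rises were LIMS2, a partner of integrin-linked kinase (log2 fold change 3.30 ± 0.20 SE, edgeR adjusted P = 1.5e-10), TNS3, a tensin that binds beta subunit tails (log2 fold change 3.29 ± 0.059 SE, edgeR adjusted P = 8.57e-17), and PARVG, a parvin (log2 fold change 3.11 ± 0.39 SE, edgeR adjusted P = 2.09e-06). PARVG rests on 35, 26 and 38 counts in siEF against 4, 5 and 5 in siNEG. TNS3 was at a mean of 251 ± 4.89 CPM in siEF and 25.6 ± 2.06 in siNEG, and LIMS2 at 15.4 ± 0.913 and 1.56 ± 0.539. Vinculin (VCL), at 1559 ± 19.7 CPM in siEF against 399 ± 13.7 in siNEG, was also called higher (log2 fold change 1.96 ± 0.045 SE, edgeR adjusted P = 1.27e-15). The integrin-linked kinase itself (ILK) differed little (log2 fold change 0.04 ± 0.057 SE, edgeR adjusted P = 0.568), and paxillin (PXN) was lower by adjusted P only (log2 fold change -0.46 ± 0.042 SE, edgeR adjusted P = 4.12e-08). Between media and siNEG, LIMS2 was called lower (log2 fold change -1.05 ± 0.22 SE, edgeR adjusted P = 0.003).

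Of 21 genes for partners of laminin in the basement membrane, 20 were tested, 11 were called higher in siEF and none lower, beside 17.1% and 11.7% of all genes. Among the 11, COL4A5 and SMOC1 passed the filter on low counts only through their siEF libraries. Their median log2 fold change was 1.10, and that of all genes 0.046. The 3 largest rises among those with a mean of at least 1 CPM were COL18A1 (log2 fold change 3.64 ± 0.10 SE, edgeR adjusted P = 9.37e-15) and COL4A5 (log2 fold change 3.25 ± 0.58 SE, edgeR adjusted P = 9.14e-05), both collagens of this layer, and NID2, a nidogen that links laminin to collagen IV (log2 fold change 3.24 ± 0.056 SE, edgeR adjusted P = 6.49e-17). COL4A5 rests on 60, 43 and 74 counts in siEF against 5, 15 and 3 in siNEG. NID1, which binds the LAMC1 chain, was at a mean of 301 ± 14.2 CPM in siEF and 43.5 ± 0.984 in siNEG (log2 fold change 2.79 ± 0.049 SE, edgeR adjusted P = 6.49e-17). HSPG2, the proteoglycan perlecan, was called higher too (log2 fold change 1.95 ± 0.066 SE, edgeR adjusted P = 1.22e-13). COL4A1, a main collagen IV chain, was at 215 ± 10.5 and 48.6 ± 1.75 CPM (log2 fold change 2.15 ± 0.052 SE, edgeR adjusted P = 2.82e-15). DAG1, the laminin receptor dystroglycan and no integrin, was lower in siEF by adjusted P only, at 109.5 ± 2.28 against 182 ± 8.86 CPM (log2 fold change -0.73 ± 0.046 SE, edgeR adjusted P = 2.93e-10).

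Of 16 ligand genes of the RGD-binding integrins, 11 were tested, 6 were called higher in siEF and none lower, beside the same 17.1% and 11.7%. The median log2 fold change was 1.99, again beside 0.046. The 3 largest rises were THBS1, thrombospondin 1 (log2 fold change 6.17 ± 0.11 SE, edgeR adjusted P = 7.81e-17), FBN1, fibrillin 1 (log2 fold change 3.67 ± 0.11 SE, edgeR adjusted P = 3e-14), and TGFBI, a secreted adhesion protein (log2 fold change 3.56 ± 0.050 SE, edgeR adjusted P = 9.75e-18). THBS1 was at 169.7 ± 3.67 CPM in siEF, 2.38 ± 0.714 in siNEG and 0.936 ± 0.0196 in media, and it was also called higher in siNEG than in media (log2 fold change 1.33 ± 0.21 SE, edgeR adjusted P = 0.000274). Fibronectin (FN1), the ligand of the ITGA5 and ITGB1 pair, was at 39923 ± 340.4 CPM in siEF and 6894 ± 272 in siNEG (log2 fold change 2.53 ± 0.042 SE, edgeR adjusted P = 4.23e-17). VTN, SPP1, IBSP, NPNT and EDIL3 had too few counts to be tested.

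Genes that mark some other cell types also differed between the groups. The 5 fibroblast markers (DCN, LUM, PDGFRA, PDGFRB and COL3A1) summed to 5880.4 to 6104 CPM in siEF, 637 to 666 in siNEG and 655 to 690.2 in media, and all 5 were called higher in siEF than in siNEG. The 5 epithelial markers (EPCAM, CDH1, KRT8, KRT18 and KRT19) summed to 606 to 655, 103 to 108 and 119 to 134 CPM, with 4 called higher and with CDH1 and KRT19 at 0 in all siNEG libraries. Among the 4, CDH1 passed the filter on low counts only through its siEF libraries. Only 2 of the 5 epithelial markers had a mean of at least 1 CPM in siEF. Against media 3 of them were called higher in siEF, and 1 was called lower in siNEG than in media. Over all genes, 17.1% were called higher in siEF than in siNEG and 17.4% higher than in media. The 5 endothelial markers (PECAM1, CDH5, VWF, KDR and TEK) summed to between 5.42 and 8.13 CPM in all 9 libraries, but did not move together. Between siNEG and siEF, TEK was called higher (2.23 ± 0.273 against 0.206 ± 0.0259 CPM, edgeR adjusted P = 8.06e-07) and PECAM1 lower (log2 fold change -1.22 ± 0.22 SE, edgeR adjusted P = 8.43e-05), and against media 3 were called higher and 1 lower. TEK passed the filter on low counts only through its siEF libraries. The part of these 3 marker lists in the laminin and integrin differences was not tested.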

How the data were processed

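The table deposited by the authors holds RSEM expected counts per gene for 9 libraries, not scaled for depth; per the paper's methods, reads were aligned to hg38 with STAR, and the study's own calls used DESeq2 1.32.0. Per the labels, RNA was column-purified polyA RNA, but the library kit they name is one for small RNA, so how the libraries were made could not be worked out. The annotation release and strand setting are not given in the sources used here. Of 60603 gene identifiers, 60261 (99.4%) were in GENCODE 44, which gave positions and exon lengths.

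Expected counts were rounded, filtered (filterByExpr, 16093 genes), TMM-scaled and tested in edgeR 4.0.16 (R 4.3.3) by its quasi-likelihood F-test, all 9 libraries in 1 fit with a mean per group, and Benjamini-Hochberg adjustment over all genes. SEs are the log2 fold change over the root of F. In the text, edgeR adjusted P refers to this test. No 2 libraries were identical, and pairs differed beyond sampling noise. On simulated data with 200 of 15743 genes changed 3-fold, 196 were recovered with 0 false calls for siEF against siNEG. All changed genes had a mean above 1 CPM, so the simulation does not cover the members under 1 CPM. The share of genes changed was also smaller than the share called in the real data.

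A gene found by the rule and a leukocyte marker are not reported here and enter no count; every other member was accounted for, those called were given in full, and list genes were named as the 3 largest called rises and falls without overlap at a mean of 1 CPM or more; no gene of the adhesion, basement membrane and RGD ligand lists was called lower in siEF than in siNEG. NID1, HSPG2, COL4A1, DAG1, VCL, ILK, PXN, FN1, PELO, HASPIN, ITGB2-AS1, PECAM1 and TEK were named after their values were seen. The members and lists were chosen with earlier results of these data known. DESeq2 1.42.0, other scalings, filters, cut-offs, a replicate block and leave-one-out fits were tried. Promoter windows are from RefSeq.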

Additional observations from a re-analysis of the deposited data

How the results depend on the processing

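Of the alternatives, DESeq2, RLE or upper quartile scaling, only the 6 libraries compared and counts not rounded left the counts of called integrin and laminin genes within 1.5 times, as did no filter on low counts, which gave 14 called higher between siNEG and siEF (ITGB7 and ITGB8 joined). Leaving out 1 library at a time gave 11 to 13 called higher and 1 called lower. With at least 10 counts in every library 20 members could be tested, and 7 were called higher against siNEG and 8 against media, since members low in the controls were removed. By adjusted P alone, 19 members were higher and 3 lower in siEF than in siNEG, 4 were lower than in media, 2 were higher and 2 lower in siNEG than in media, and 23 adhesion complex genes and 10 RGD ligand genes passed. Testing against the cut-off itself gave 8 members higher against siNEG, with ITGA9, ITGAL, ITGAV and LAMA1 lost, and 1 lower against media.

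Direction turned only for genes that were not called. LAMA2 (-0.07) gave 0.011 under upper quartile scaling and between -0.38 and 0.16 with 1 library left out, being 0.06, 0.04 and 0.16 without siEF replicate 1, siEF replicate 2 or siNEG replicate 1. With 1 library left out LAMB3 ran from -0.10 (without siNEG replicate 1) to 0.52; the cause was not tested. The replicate numbers of the labels did not pair the libraries, since same-numbered libraries deviated with correlations between -0.0875 and 0.0482. With the replicate number as a block, 12 members were called higher and 1 lower in siEF than in siNEG, and no count of calls moved by over 1.5 times.

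Upper quartile scaling moved the median log2 fold change of all genes from 0.046 to 0.132. Depth limits the members under 1 CPM, where 1 library can decide a call.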

Other observations

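Overlapping genes bear on a few of the values above, since reads may be shared between them. Exons of 23 of the 37 members overlapped those of another annotated gene, in 7 cases on the same strand and in 30 on the other. Most of these partners had hardly any reads. Besides HASPIN, PELO and ITGB2-AS1, given above, those with more were as follows. ZNF740 shares 1881 bases with ITGB7 and was at 35.0 CPM in siEF and 55.3 in siNEG, far above ITGB7 itself. ADRM1 shares 244 bases with LAMA5 and was at 54.6 CPM in siEF and 94.6 in siNEG, the direction opposite to that of LAMA5. DLD shares 300 bases with LAMB1 and was at 123 and 155 CPM. ITGA9-AS1 shares 763 bases with ITGA9 and was at 0.748 and 0.586 CPM, with a log2 fold change of 0.33 (edgeR adjusted P = 0.54). 3 partners overlap ITGA7 on the other strand, and 1 of them, an unnamed gene sharing 8 bases, was at 0.653 CPM in siEF and 1.50 in siNEG. METTL7B shares 44 bases with ITGA7 and was at 3.72 and 1.67 CPM, with a log2 fold change of 1.15 (edgeR adjusted P = 4.96e-05). BLOC1S1 shares 119 bases with ITGA7 and was at 25.8 and 20.2 CPM. How many reads of each pair were assigned to the partner was not tested.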
